A study of Drosophila melanogaster with 3 samples.

Results

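The ionotropic receptors (IRs) are the chemosensory branch of the ionotropic glutamate receptor superfamily in insects. Members were taken as genes whose symbol is Ir followed by digits and a letter, matched to the count table by FlyBase ID, and all 66 such genes of the annotation were among the 17558 genes of the table. The material was heads of untreated adult wild-type *Drosophila melanogaster* raised at 25°C, and 3 replicate libraries of polyadenylated RNA form the only group. The series text names the strain CantonS, whereas the methods of the study give *w1118* as its wild type, and the labels state neither the sex nor the age of the flies or how many heads went into a library. Nothing in the labels says that the libraries came from separate collections of flies, so the spread given here is that between libraries and may be technical.

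IRs are assembled from a shared co-receptor, mainly Ir25a, Ir8a or Ir76b, and a tuning subunit that sets the stimulus. Olfactory members sit in sensory neurons of coeloconic sensilla on the antenna and in the sacculus, an antennal pouch, where they respond to acids and amines. A further set serves temperature and humidity sensing in the arista and sacculus. Most other members have been placed in taste neurons of the labellum, pharynx and legs, and in larval sense organs. The labels name adult heads, so legs and larvae were not part of the labelled material.

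The libraries held 8332583, 7349123 and 6299265 counts in replicates 1, 2 and 3, so that 1 count was worth 0.120 to 0.159 CPM (counts per 1000000 counts of the library). The head label was checked with marker genes. The 7 antenna markers, the 4 eye markers and the 4 matched neuron markers were all detected, here meaning at least 10 counts summed over the libraries, and the 3 male accessory gland markers had no count. The 3 testis and 3 ovary markers had at most 3 counts each over all libraries. The labellar taste neuron markers were low, with 3 of 4 detected and the highest, *ppk28*, at 2.26 CPM ± 0.551 (SD, n = 3). Flight muscle markers, from the thorax, were also present, with 3 of 3 detected and sums of 5.28, 5.31 and 20.95 CPM in replicates 1, 2 and 3, of which *Act88F* made up 3.12, 3.13 and 18.4 CPM. In RNA from whole heads, fewer cells of a type and less RNA per cell cannot be told apart.

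IRs took a very small part of head mRNA, and a few members carried most of it. The family had 937, 782 and 671 counts in replicates 1, 2 and 3, or 112, 106 and 107 CPM, a mean of 108 CPM ± 3.46 (SD, n = 3). The sums differed little between libraries and amounted to about 0.011% of the counts of a library. Of the 66 members, 21 (31.8%) were detected, 22 had 1 to 9 counts and 23 had none. The shares detected were 57.5% of all genes and 69.3% of protein-coding genes, so the family lay below both. At least 1 count was found for 43 members, compared with 73.5% of all genes. The 4 members with the most counts, *Ir25a*, *Ir76a*, *Ir76b* and *Ir62a*, held 59.5% ± 1.63 of all IR counts (SD, n = 3), and the 45 members under 10 counts together held 2.67% ± 0.542. Of the 21 detected members 10 lie in an intron of, or start up to 500 bp after, another gene on the same strand, and without all such members the family had 30.2 CPM. Of all 66 members 25 lie so, and the share of all genes was not computed. Among the 10, *Ir75b*, *Ir75a* and *Ir68a* had 833%, 110% and 415% of the counts of that neighbour, and the others at most 46.6%. How much of the 30.2 CPM difference came from neighbours was not tested.

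The co-receptors were all detected but lay far apart. *Ir25a*, the broadest co-receptor, had 196, 147 and 126 counts in replicates 1, 2 and 3, a mean of 21.2 CPM ± 2.03 (SD, n = 3). Its 469 counts were the most of any member, and the Wilson 95% intervals of the libraries overlapped (20.5 to 27.1, 17.0 to 23.5 and 16.8 to 23.8 CPM). *Ir76b*, a co-receptor of amine-sensing olfactory neurons and of taste neurons, had 14.4, 14.6 and 13.8 CPM, and its ratio of highest to lowest library, 1.05, was the smallest among the 21 detected members. *Ir8a*, the co-receptor of acid-sensing neurons, had 6.24, 4.90 and 3.97 CPM. *Ir93a*, which acts with *Ir25a* in temperature and humidity sensing, had only 11, 5 and 9 counts, or 1.32, 0.680 and 1.43 CPM. Each of its intervals reached over 2-fold from end to end, the widest from 0.291 to 1.59 CPM in replicate 2.

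Compared per kilobase of exon, which corrects for the longer transcripts of some members, *Ir25a* and *Ir76b* stood level. *Ir76b* had 6.18 CPM per kilobase ± 0.171 and *Ir25a* 5.90 ± 0.567 (SD, n = 3), and the ranges of the libraries overlapped. The log2 ratio of *Ir25a* to *Ir76b* per kilobase was -0.07 ± 0.13 (SD, n = 3), positive in replicate 1 and negative in the others (two-sided exact sign-flip permutation p = 0.5). Without division by length it was 0.56, because the annotated exons of *Ir25a* span 3587 bases and those of *Ir76b* 2308 bases. *Ir25a* exceeded *Ir8a* by a log2 value of 1.72 ± 0.21 and *Ir93a* by 3.80 ± 0.51 per kilobase, in 3 of 3 libraries each (SD, n = 3; exact sign-flip permutation p = 0.25, the smallest that 3 libraries allow). Adjusted over the 8 ratios computed in this report (Benjamini-Hochberg), these p-values became 0.286, and that of *Ir25a* to *Ir76b* stayed at 0.5.

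*Ir25a* lies on chromosome 2L (4830846 to 4835300, minus strand, dm6 coordinates) and has 9 exons and 947 annotated amino acids. *Ir8a* (X, 9232726 to 9236585, minus strand) has 936 amino acids, *Ir93a* (3R, 20851709 to 20859945, minus strand) 868 and *Ir76b* (3L, 20108484 to 20111534, minus strand) 636. *Ir25a*, *Ir8a* and *Ir93a* are known to keep the long amino-terminal domain of glutamate receptors, and the median protein-coding member had 605 amino acids. *Ir25a* begins 34 bp after the end of *tank* on the same strand, a gene at 46.2 CPM ± 5.21 (SD, n = 3). *Ir8a* begins 215 bp after *mxc* (19.4 CPM ± 1.55) and *Ir93a* 241 bp after the glutamate receptor *KaiR1D* (45.8 CPM ± 3.11). Reads running past the end of an upstream gene would be counted in the next one, and their part in these values was not tested.

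**Figure D1:**
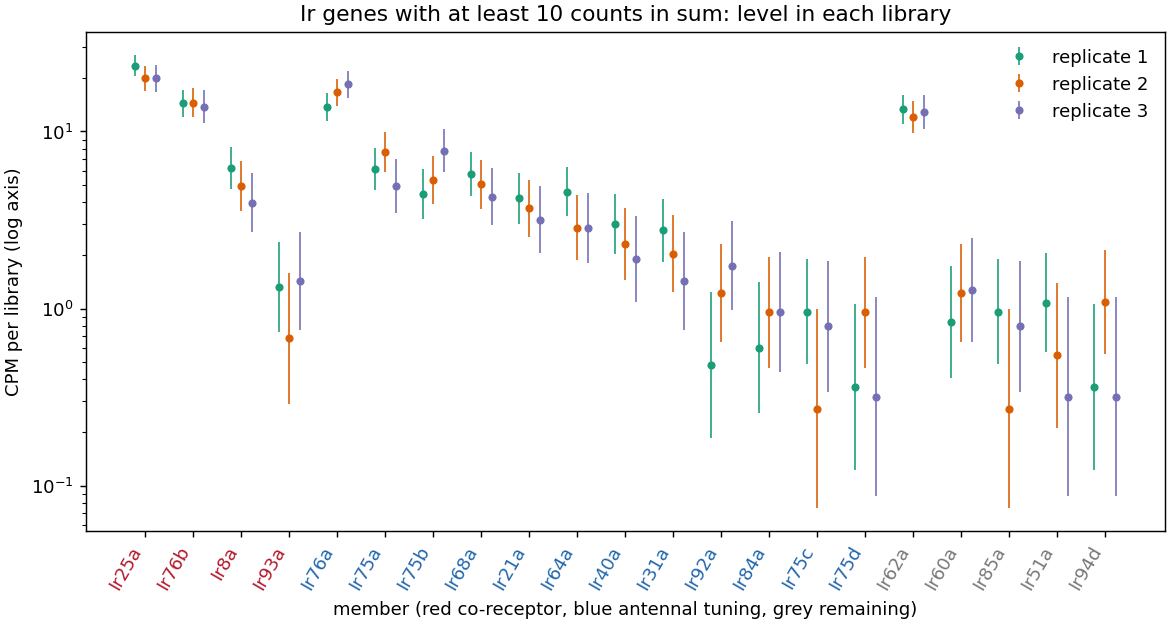
CPM of the 21 detected IR genes in each of the 3 libraries on a log axis, with Wilson 95% intervals, grouped by role (red names, co-receptors; blue, antennal tuning receptors; grey, remaining members). *Ir25a*, *Ir76b*, *Ir76a* and *Ir62a* stayed above 12 CPM in every library, and members under 25 counts in sum had intervals spanning several fold.

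Of the 13 tuning receptors of the antenna, 12 were detected, and together they held 44.8% ± 2.42 of IR counts, more than the co-receptors with 38.3% ± 1.89 (SD, n = 3). The order turned when members inside or just after another gene on the same strand were left out, with 38.2% for the antennal tuning receptors and 47.3% for *Ir76b*, the only co-receptor left. *Ir76a*, a tuning subunit for amines, was by far the highest of them, with 13.8, 16.6 and 18.4 CPM in replicates 1, 2 and 3. It was highest in replicate 3 and lowest in replicate 1. *Ir76a* has 8 exons (3L, 19799278 to 19803427, plus strand). It begins 298 bp after *SREBP* on the same strand, which had 375 CPM ± 20.01 (SD, n = 3), and its counts came to 3.87%, 4.44% and 4.65% of those of *SREBP*. In addition, 297 of its exon bases overlap *CG14102* on the opposite strand, at 5.80 CPM ± 0.901. The part of either neighbour in the *Ir76a* counts was not tested.

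The Ir75 receptors detect short carboxylic acids, and *Ir75a*, *Ir75b* and *Ir75c* lie head to tail on the minus strand of 3L (17815570 to 17822834), 151 and 299 bp apart. *Ir75a* had 6.12, 7.62 and 4.92 CPM in replicates 1, 2 and 3. *Ir75b* had 4.44, 5.31 and 7.78 CPM. In replicate 3 *Ir75a* was at its lowest and *Ir75b* at its highest, but for both the intervals of all 3 libraries overlapped. Their sum with *Ir75c* was 12.7 CPM ± 1.06 (SD, n = 3), and the SDs of *Ir75a* and *Ir75b* alone were 1.35 and 1.73 CPM. Whether the levels of the pair are linked was not tested. *Ir75c* had 8, 2 and 5 counts. These neighbours descend from one another by duplication, and reads shared between them could be lost or misplaced, which was not tested. *Ir75d*, on 3L outside this array and tuned to amines, had 3, 7 and 2 counts, and 2098 of its 2312 exon bases are shared with *COX6AL2* on the same strand, a gene without a count. Reads in shared exons can be left uncounted for both genes, so the level of *Ir75d* is uncertain.

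Receptors for temperature and humidity were detected throughout. *Ir68a*, needed in moist-sensing cells, had 48, 37 and 27 counts in replicates 1, 2 and 3, a mean of 5.03 CPM ± 0.737. *Ir21a*, a receptor of cooling-sensing cells, had 35, 27 and 20 counts, a mean of 3.68 CPM ± 0.513. *Ir40a*, needed in dry-sensing cells, had 25, 17 and 12 counts, a mean of 2.41 CPM ± 0.554 (SD, n = 3 each). In CPM, too, all 3 were highest in replicate 1 and lowest in replicate 3. The part *Ir93a* plays with each of them is shared, yet its level per kilobase (0.417 CPM ± 0.147) was below that of *Ir68a* (2.06 ± 0.302), *Ir21a* (1.40 ± 0.195) and *Ir40a* (0.812 ± 0.187; SD, n = 3), with no overlap of the library ranges. For *Ir21a*, 2087 of 2629 exon bases lie opposite *asRNA:CR43609* (1.92 CPM ± 0.678), and the strand setting of the counting is not stated. It also begins 246 bp after *Cda5* (197 CPM ± 10.6), and reads from either cannot be separated here.

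Receptors for acids and amines made up the rest of the antennal set. *Ir64a*, a receptor of acid-sensing sacculus neurons, had 4.56, 2.86 and 2.86 CPM in replicates 1, 2 and 3. *Ir31a*, an acid receptor of coeloconic sensilla, had 2.76, 2.04 and 1.43 CPM. For both, the intervals of all 3 libraries overlapped. *Ir92a*, which serves ammonia and amine sensing, had 4, 9 and 11 counts and was lowest in replicate 1. *Ir84a*, a receptor for phenylacetic acid and phenylacetaldehyde that promotes male courtship, had 5, 7 and 6 counts. *Ir41a*, for polyamines, was the antennal receptor that missed the detection limit, with 2, 3 and 4 counts.

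The remaining 49 members, which hold the receptors known from taste and larval organs, had few counts in head RNA, with 1 exception. Only 5 were detected, 21 had 1 to 9 counts and 23 had none. *Ir62a*, which has been tied to calcium taste, had 13.3, 12.1 and 12.9 CPM in replicates 1, 2 and 3, or 281 of the 403 counts of this group. It is a gene of 1 exon (3L, 1529439 to 1531259, minus strand) and lies inside an intron of *Iml1* on the same strand, a gene with 211 CPM ± 9.37 (SD, n = 3). The counts of *Ir62a* were 6.62%, 5.51% and 6.03% of those of *Iml1* in replicates 1, 2 and 3. Reads from unspliced *Iml1* RNA would fall in *Ir62a* on the same strand and cannot be told apart from *Ir62a* mRNA in gene counts. Without *Ir62a* the remaining members held 5.06% ± 0.540 of IR counts in place of 16.8% ± 0.772 (SD, n = 3).

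The other detected members of this group had 13 to 24 counts in sum. *Ir60a* had 7, 9 and 8 counts and lies within *nord* (13.3 CPM ± 1.15), on the opposite strand. *Ir85a* had 8, 2 and 5 counts and lies within *Pif1A* on the opposite strand, and *Ir94d* had 3, 8 and 2 counts. *Ir51a*, with 9, 4 and 2 counts, is annotated as a pseudogene and begins 187 bp after *CG11807* (37.1 CPM ± 0.836; SD, n = 3). The other 5 annotated pseudogenes of the family, *Ir47b*, *Ir48a*, *Ir56e*, *Ir60c* and *Ir60f*, had no count.

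Among the remaining members below the detection limit, *Ir20a*, a receptor of amino acid taste, and *Ir11a* came closest, with 7 counts each over the 3 libraries. *Ir56d*, which serves fatty acid taste, and *Ir7c*, a high-salt receptor, had 6 each. *Ir56b*, a salt receptor, had 3, *Ir94e*, of labellar taste neurons, had 2, and the pharyngeal receptor *Ir60b* had 1. The courtship receptors *Ir52c* and *Ir52d*, known from foreleg taste neurons, had no count and 1 count. Among tandem groups, the 7 Ir7 genes had 10 counts in sum, the 8 Ir94 genes 18, the 5 Ir56 genes 9, and the 4 Ir52 genes 1. The 23 genes without a count were *Ir7b*, *Ir7e*, *Ir7f*, *Ir7g*, *Ir10a*, *Ir47b*, *Ir48a*, *Ir48c*, *Ir52a*, *Ir52b*, *Ir52c*, *Ir56a*, *Ir56c*, *Ir56e*, *Ir60c*, *Ir60e*, *Ir60f*, *Ir67b*, *Ir68b*, *Ir94c*, *Ir94g*, *Ir94h* and *Ir100a*. A count of 0 in a single library allows up to 0.360, 0.408 and 0.476 CPM in replicates 1, 2 and 3 (3 counts of the library total). Lower levels could still give counts, since 1 count was worth 0.120 to 0.159 CPM. *Ir87a*, for example, was counted in every library, at 0.120, 0.136 and 0.317 CPM in replicates 1, 2 and 3. A joint limit for genes without a count in any library was not computed.

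**Figure D2:**
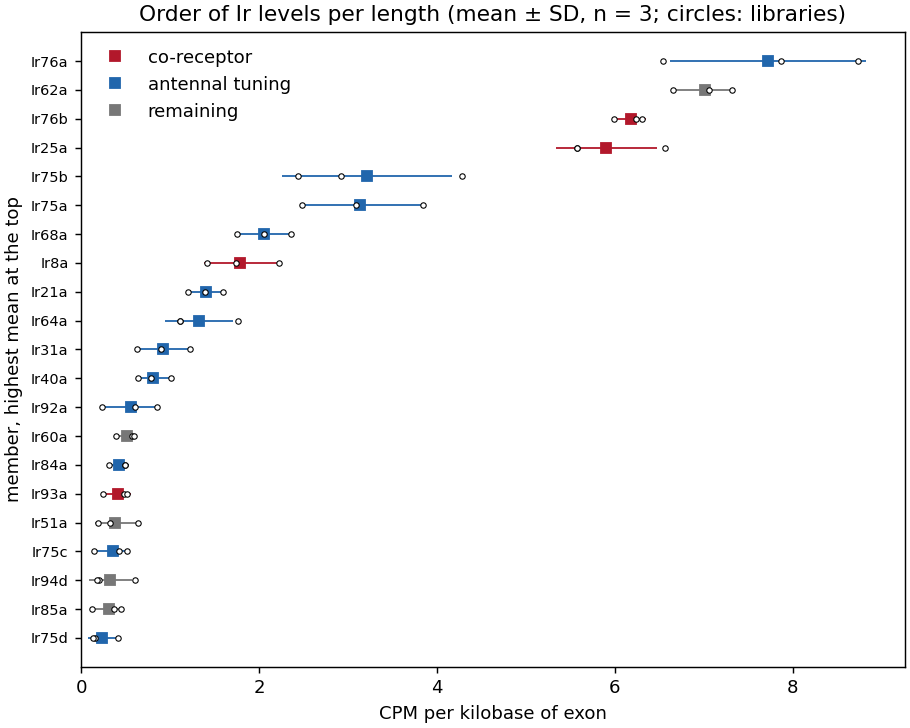
CPM per kilobase of exon of the 21 detected IR genes, from the highest mean at the top to the lowest (squares, mean with SD, n = 3; open circles, single libraries; colours give the role). *Ir76a*, *Ir62a*, *Ir76b* and *Ir25a* lay between 5.90 and 7.72, and every other member had a mean of 3.21 or less.

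Ordered per kilobase, the detected members spanned 7.72 CPM ± 1.10 for *Ir76a* to 0.235 CPM ± 0.154 for *Ir75d* (SD, n = 3). *Ir76a* and *Ir62a* (7.01 ± 0.336) overlapped in their library ranges, as did *Ir76b* and *Ir25a*, while *Ir62a* lay above *Ir76b* in every library. A gap separated these 4 from *Ir75b* (3.21 ± 0.953) and *Ir75a* (3.14 ± 0.682), and a second one separated these from *Ir68a*. Of the 20 pairs of neighbours in this order, 17 overlapped, so from *Ir68a* downward the library ranges settle no single place in the order. Compared within each library, *Ir68a* lay above *Ir8a*, *Ir8a* above *Ir21a*, *Ir64a* above *Ir31a* and *Ir60a* above *Ir84a* in 3 of 3 libraries. The other pairs from *Ir68a* downward did not keep their order in all 3. Even the highest member exceeded only 36.7% of the 9901 detected genes with an annotated length. The median detected member had 0.918 CPM per kilobase, against 12.8 for the median detected protein-coding gene.

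The roles of the members went together with their gene structure. All 17 co-receptors and antennal tuning receptors have at least 4 exons, while 34 of the 49 remaining members consist of 1 exon. Of the 18 members with 4 or more exons 16 were detected, the others being *Ir41a* and *Ir87a*, and they held 83.4% ± 0.771 of IR counts (SD, n = 3). Of the 14 members with 2 or 3 exons 3 were detected, and of the 34 with 1 exon 2 were detected, *Ir62a* and *Ir51a*. Protein-coding genes as a whole showed the same order, with 85.6% detected at 4 or more exons, 63.3% at 2 or 3 and 38.4% at 1 exon. Detection by position is given without the share of all genes beside it, so it is not read as a result about the members. Of the 37 members within 10 kb of another member 5 were detected (3 of them the *Ir75a* to *Ir75c* array), and of the 29 that stand alone 16 were. All 4 members on 2L, each a co-receptor or antennal tuning receptor, and 9 of 13 on 3L were detected. This compares with 2 of 24 on 2R, 1 of 11 on X and 5 of 14 on 3R. Of the 24 on 2R, 20 have 1 exon and 6 are pseudogenes, so position is not separate from role and gene structure. The shares of all genes detected by chromosome or by spacing were not computed. The counts by exon number, spacing and chromosome are over related genes and were not tested.

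**Figure D3:**
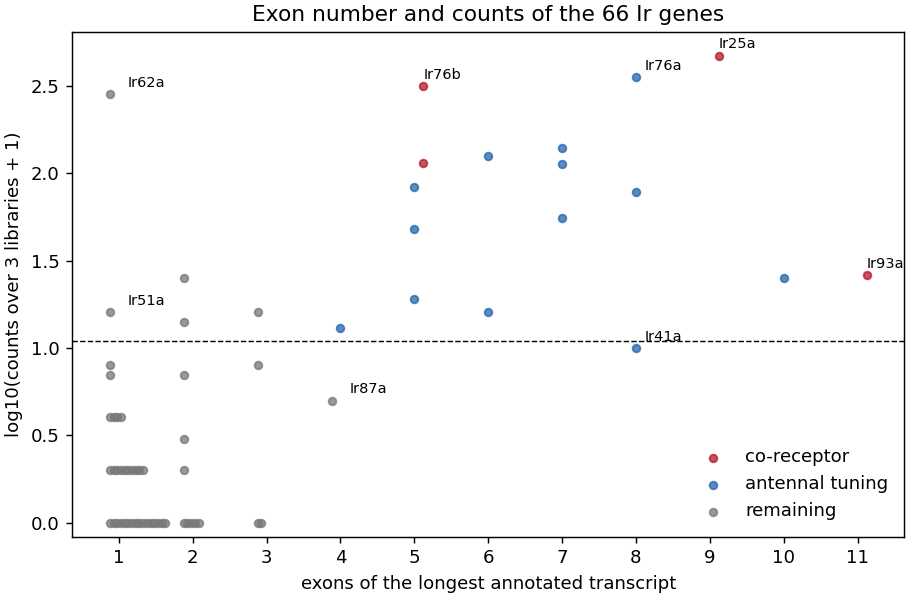
Exons of the longest annotated transcript (horizontal) against log10 of the counts summed over the 3 libraries plus 1 (vertical) for all 66 IR genes, coloured by role and spread sideways where points coincide. The dashed line marks 10 counts. Genes of 1 exon lay below it except *Ir62a* and *Ir51a*, and genes of 4 or more exons lay above it except *Ir41a* and *Ir87a*.

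The design has no second group of flies, so role groups and receptor families were compared within each library. Summed per kilobase, the co-receptors had 15.5, 13.9 and 13.5 CPM, against 32.0, 31.8 and 32.7 CPM for all other members, in replicates 1, 2 and 3. The log2 ratio was -1.17 ± 0.12 (SD, n = 3), negative in 3 of 3 libraries. The antennal tuning receptors had 21.3, 22.7 and 23.0 CPM per kilobase, against 10.7, 9.14 and 9.70 for the remaining members, a log2 ratio of 1.19 ± 0.17 in 3 of 3 libraries. For each of the 2 ratios the exact sign-flip permutation p was 0.25 and the adjusted p 0.286. Without the members whose exons overlap another gene, which include *Ir76a*, the ratio of antennal tuning receptors to remaining members became 0.51. Without *Ir62a* the ratio of antennal tuning receptors to remaining members became 2.99. Without the members inside or just after another gene on the same strand, the ratio of co-receptors to other members became -0.19.

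The odorant receptors (Or) and gustatory receptors (Gr) are the other large chemoreceptor families of the fly and are unrelated to IRs in sequence. The IR sum per kilobase was 47.5, 45.7 and 46.2 CPM in replicates 1, 2 and 3, against 107, 102 and 88.6 CPM for the 60 Or genes. The log2 ratio was -1.09 ± 0.13 (SD, n = 3). Against the 60 Gr genes, with 9.92, 11.6 and 8.64 CPM, the ratio was 2.22 ± 0.22. Each held its direction in 3 of 3 libraries (exact sign-flip permutation p = 0.25, adjusted p = 0.286). Summed over each family, IRs were thus below Or genes and above Gr genes in every library. Without division by exon length the mean log2 ratios were -0.52 to Or genes and 2.73 to Gr genes. Of the 99.1 CPM per kilobase of the Or genes, *Orco* alone had 37.9. Without the genes of all 3 families that lie in an intron of, or start up to 500 bp after, another gene on the same strand, a choice made after the data were seen, the ratios were -2.66 to Or genes and 0.95 to Gr genes. Detection followed the same order, with 21 of 66 IR genes, 40 of 60 Or genes (66.7%) and 9 of 60 Gr genes (15.0%).

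**Figure D4:**
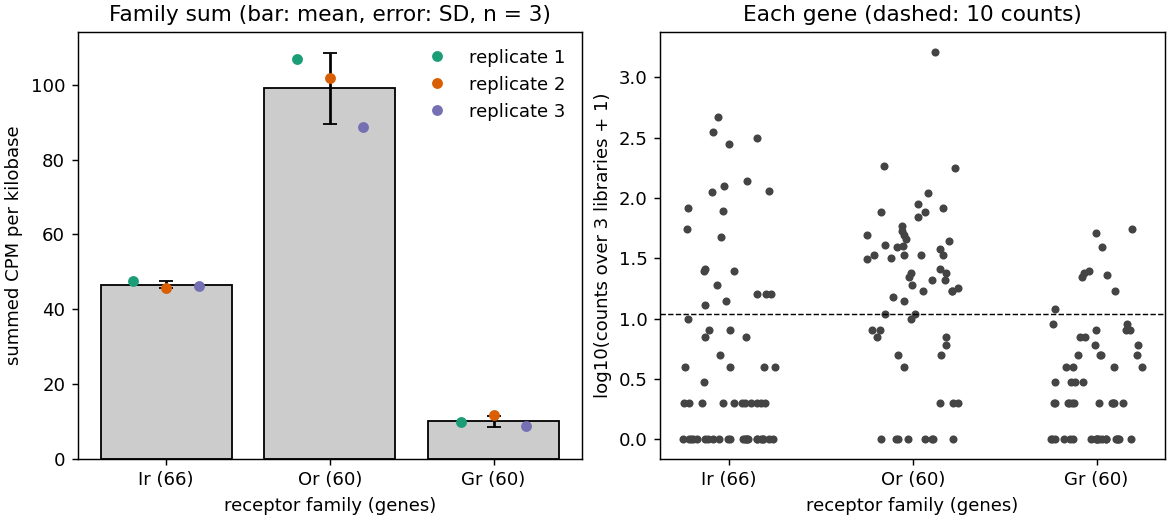
Left, CPM per kilobase of exon summed over each receptor family (bars, mean; error bars, SD, n = 3; points, libraries), and right, log10 of summed counts plus 1 for each gene, with a dashed line at 10 counts. The IR sums lay between 45.7 and 47.5, below the Or sums (88.6 to 107) and above the Gr sums (8.64 to 11.6).

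The families also differed in how their counts were spread. *Orco*, the co-receptor of all Or proteins, held 47.4% of Or counts, whereas *Ir25a* held 19.6% of IR counts. Per kilobase, *Ir25a* had 5.90 CPM ± 0.567 and *Orco* 37.9 CPM ± 4.84, a log2 ratio of -2.68 ± 0.10 in 3 of 3 libraries (SD, n = 3; exact sign-flip permutation p = 0.25, adjusted p = 0.286). Without division by exon length the ratio was -1.79. Other genes of olfactory and humidity-sensing organs were also above every IR. *Amt*, an ammonium transporter needed for ammonia sensing, had 17.8 CPM per kilobase ± 2.47, and *Obp59a*, an odorant-binding protein needed for humidity sensing, had 27.4 ± 5.08. *Snmp1*, a pheromone co-receptor, had 32.2 ± 4.04 and *lush*, an odorant-binding protein, 63.0 ± 9.98 (SD, n = 3). *Gr63a* (1.12 ± 0.689), which together with *Gr21a* (0.328 ± 0.0875) forms the carbon dioxide receptor, and the thermosensors *TrpA1* (0.665 ± 0.122) and *Gr28b* (0.577 ± 0.109) were in the range of the antennal IRs. *brv1*, a gene of cold-sensing arista cells, was the only one of the 10 partner genes that was not detected, with no count.

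Synaptic glutamate receptors are the relatives from which IRs are derived, and the 6 chosen for comparison were higher than most members. They had 3.12 to 16.4 CPM per kilobase, from *clumsy* to *Nmdar1*, and other genes of this class were not examined. *GluRIB* at 6.29 ± 0.315 lay within the band of *Ir76a*, *Ir62a*, *Ir76b* and *Ir25a*, and *clumsy* (3.12 ± 0.535) lay at the level of *Ir75a* (SD, n = 3).

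No member was called for differences between replicates, which does not show that their replicates were alike. In edgeR's quasi-likelihood fit over 9049 genes, 29 (0.320%) showed a larger spread between replicates than the fit predicts for their abundance (adjusted p under 0.05). Of the 12 members tested, 0 were called, and 0 had an unadjusted p under 0.05. The adjusted p from edgeR was lowest for *Ir75b* and 10 others, at 0.992, and 0.997 for *Ir76b*. DESeq2 named 0 of 21 detected members as dispersion outliers. The 9 detected members that edgeR's filter left out had at most 25 counts in sum.

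The library in which each member was highest or lowest was counted as well, without a test. Of the 21 detected members 11, 5 and 5 were highest in replicates 1, 2 and 3, compared with 24.8%, 46.1% and 29.1% of all detected genes. In the same order 5, 4 and 12 members were lowest, compared with 34.9%, 26.3% and 38.8%. The 7 antenna markers were all lowest in replicate 3, with sums of 3034, 3259 and 2459 CPM in replicates 1, 2 and 3, and the Or family was lowest there too, at 169, 159 and 139 CPM. The co-receptor sum was 45.5, 40.1 and 39.2 CPM. The antennal tuning sum of 47.3, 49.3 and 49.2 CPM did not share this pattern, since *Ir76a*, *Ir75b* and *Ir92a* were highest in replicate 3 while 7 of the 12 detected antennal members were lowest there. Some other marker sums were highest in replicate 3. The neuron markers had 3525, 3162 and 3736 CPM in replicates 1, 2 and 3. The flight muscle markers summed to 5.28, 5.31 and 20.95 CPM, of which *Act88F* alone had 3.12, 3.13 and 18.4 CPM. Of the other flight muscle markers, *fln* had 2, 2 and 6 counts, and *TpnC4* was lowest in replicate 3, at 1.92, 1.90 and 1.59 CPM. The part that the tissue content of each library played in these values was not tested.

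**Figure D5:**
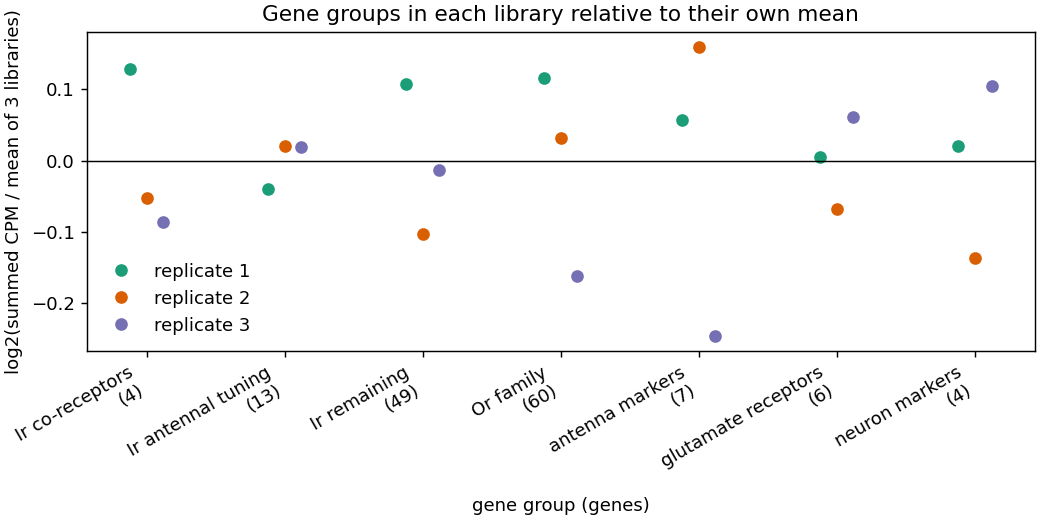
Log2 of the summed CPM of each gene group in each library over the mean of the 3 libraries (points, libraries; number of genes in parentheses). The antenna markers and the Or family were lowest in replicate 3, while the antennal tuning IRs lay within 0.04 of their mean in every library.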

How the data were processed

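Polyadenylated RNA from adult heads (150 ng of total RNA, TruSeq Stranded mRNA kit, per the labels) was measured in 3 libraries. The authors deposited raw read counts per FlyBase gene ID. The submitters' processing notes name STAR 2.7.4a, featureCounts and dm6, and the study names the snakePipes RNA-seq module. The strand setting and the handling of shared or multiply mapped reads are not given in the sources used here. Symbols, coordinates, exons and coding lengths came from Ensembl release 115, a later release than that of the study, and 17252 of 17558 IDs matched. Lengths per kilobase are unions of annotated exons.

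Counts were scaled to CPM by library total. Intervals are Wilson 95% intervals of a share. Like the upper limit of 3 counts, they reflect counting error alone, since PCR copies of a molecule were not marked. Family ratios were log2 ratios of sums, and ratios of single genes had 0.5 count added to each gene. Both were tested with two-sided exact sign-flip permutation tests. Replicate variability was modelled in edgeR 4.0.16 (R 4.3.3; TMM, filterByExpr, intercept only), with each quasi-dispersion compared with its prior by the upper tail of F and adjusted over all genes tested. DESeq2 1.42.0 was an alternative. Every member with at least 10 counts in sum was named with its values, and members and lists were chosen with earlier results of these data known. Other alternatives were the detection limit, scaling, transcript length, pseudocount, exon overlap and leaving out each library. 1 symbol of the neuron marker list, *para*, was not matched. Protein and promoter sequences were not used here.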

Additional observations from a re-analysis of the deposited data

How the results depend on the processing

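No comparison between groups of samples was possible because the 3 libraries form a single group, and the ratios were taken within each library. For 36 results, 236 values under other settings were computed. Of these, 216 kept their direction or stayed within the spread between replicates (1.5 times for counts of genes), 19 moved further and 1 changed its direction. Most of the 216 were levels of single members under other scaling or without a library, where 124 of 126 stayed. A kept direction also covers changes in size, such as the log2 ratio of co-receptors to other members going from -1.17 to -0.19. The change of direction was in the log2 ratio of *Ir25a* to *Ir76b*, which was 0.56 without division by exon length, by construction. The number of detected IR members was 43 with at least 1 count in sum, 12 with at least 30 and 11 with at least 10 in every library. For Or genes it was 25 with at least 30 counts and 17 with 10 in every library. For Gr genes it was 41, 3 and 2 under the same limits of 1, 30 and 10 in every library. Leaving out a library gave 17 to 21 IR members. The IR sum was 115.3 CPM without mitochondrial genes in the total. The co-receptor share was 30.7% per kilobase, since co-receptors have longer exons.

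After the data were seen, 2 alternatives were added. Without *Ir62a* the IR sum was 95.7 CPM, the co-receptor share 43.4% and the antennal tuning share 50.8%. Without the members that lie in an intron of, or start up to 500 bp after, another gene on the same strand, which include *Ir25a*, *Ir8a*, *Ir76a* and *Ir62a*, 11 IR members were detected, the sum was 30.2 CPM, the co-receptor share 47.3% and the antennal tuning share 38.2%. With such genes left out of all 3 families, the log2 ratio of IR to Or genes was -2.66, that of IR to Gr genes 0.95 and that of co-receptors to other members -0.19, with unchanged directions. Members under about 25 counts are limited by depth. Exon lengths assume all annotated exons, and isoform use is not known from gene counts.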
